A study of Mus musculus with 4 samples.

Results

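Gene expression was compared between 2 of the 4 RNA-seq libraries of the study, an uninjected remote tumor and a tumor from mice given CTX without T cells or virus. The libraries were chosen by their titles, 1 library for each group. All 4 came from tumors of B16, a transplantable pigmented melanoma line of the mouse, which had been placed subcutaneously in both flanks of B6 animals. Every group received CTX, the usual abbreviation of the alkylating drug cyclophosphamide, into the peritoneum on the day before ACT, an abbreviation that the labels leave unexplained. Treatment began on day 7, when tumors measured about 7 by 6 mm, and tissue was taken 12 days after ACT. Mice of the remote tumor group were given TRP-1 T cells by vein and free MV, written MYXV in the table headers, into the left tumor, and the library came from the right tumor. Mice of the CTX group had PBS injected into the left tumor, and the labels do not say which flank was sequenced. The labels state n = 2 for the RNA-seq, but only 1 count column exists per group, and pooling of mice is not described. The source field names a melanoma cell line, whereas the protocol describes about 100 mg of tumor tissue per mouse. No value below has a replicate, so no test between the conditions was possible.

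Macrophages and monocytes that sense injury, microbes or cytokines switch on a rapid program driven largely by the NF-kB transcription factors. It includes the cytokines TNF and interleukin-1 beta, the chemokines CCL3 and CCL4, which attract monocytes and T cells, and CXCL2, which attracts neutrophils through CXCR2. Enzymes such as cyclooxygenase 2, inducible nitric oxide synthase and the itaconate-forming enzyme ACOD1 belong to the same activated state. T cells in a tumor are recognised by the CD3 chains of the T cell receptor, and their activity by granzymes and interferon gamma.

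Against CTX, 7 genes had intervals lying wholly above a ratio of 2 in the remote tumor, Ccl4, Tnf, Cxcl2, Ccl3, Il1b, Ptgs2 and Acod1. All 7 belong to lists of inflammatory mediators or activated macrophage enzymes. Summed over Tnf, Ccl3, Ccl4, Cxcl2 and Il1b there were 630 reads in the remote tumor and 112 in CTX, a ratio of 5.42 with an interval of 4.43 to 6.69. The genes of the CD3 chains, Cd3e, Cd3d and Cd3g, summed to 17 reads in either tumor, a ratio of 0.964 with an interval of 0.462 to 2.01. The 5 cytokine and chemokine genes were picked as the leading ones and Cd3 as the T cell receptor, so the first ratio is a description of the highest genes.

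The promoters of leading genes are shown because these genes were higher together and several are textbook NF-kB targets. Each window runs from 250 bases before to 50 bases after a transcription start, from RefSeq on GRCm38.p6, which is the mm10 assembly. Of the 17 genes called higher in 4 inflammatory lists described below, 14 had an entry, and Ccl4, Cd14 and Nos2 had none. The sequences shown are the 4 highest genes with an entry and the other 3 genes with a match to the NF-kB consensus. Capitals mark matches to that consensus or to TATAAA, either motif on either strand.
Tnf: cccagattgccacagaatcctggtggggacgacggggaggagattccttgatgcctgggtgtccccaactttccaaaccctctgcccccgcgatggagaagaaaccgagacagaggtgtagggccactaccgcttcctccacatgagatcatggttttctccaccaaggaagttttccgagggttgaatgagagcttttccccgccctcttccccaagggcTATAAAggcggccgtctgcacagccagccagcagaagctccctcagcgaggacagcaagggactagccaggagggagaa
Cxcl2: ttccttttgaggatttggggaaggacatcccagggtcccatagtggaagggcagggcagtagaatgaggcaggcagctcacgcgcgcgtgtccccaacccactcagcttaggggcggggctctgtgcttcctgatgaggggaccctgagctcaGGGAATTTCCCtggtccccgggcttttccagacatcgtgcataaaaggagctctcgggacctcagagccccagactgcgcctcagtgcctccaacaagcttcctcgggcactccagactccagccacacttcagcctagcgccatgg
Ccl3: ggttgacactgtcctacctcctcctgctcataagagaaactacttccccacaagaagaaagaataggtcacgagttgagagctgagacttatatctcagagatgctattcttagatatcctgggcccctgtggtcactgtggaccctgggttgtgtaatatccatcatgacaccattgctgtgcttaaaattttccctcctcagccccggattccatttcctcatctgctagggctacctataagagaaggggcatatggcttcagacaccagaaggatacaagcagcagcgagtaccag
Il1b: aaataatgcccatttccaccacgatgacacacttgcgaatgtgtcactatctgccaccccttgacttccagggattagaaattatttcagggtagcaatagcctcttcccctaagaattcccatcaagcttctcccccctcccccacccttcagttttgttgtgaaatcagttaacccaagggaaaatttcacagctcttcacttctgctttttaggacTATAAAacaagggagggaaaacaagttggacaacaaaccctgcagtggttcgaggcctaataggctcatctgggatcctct
Ccl9: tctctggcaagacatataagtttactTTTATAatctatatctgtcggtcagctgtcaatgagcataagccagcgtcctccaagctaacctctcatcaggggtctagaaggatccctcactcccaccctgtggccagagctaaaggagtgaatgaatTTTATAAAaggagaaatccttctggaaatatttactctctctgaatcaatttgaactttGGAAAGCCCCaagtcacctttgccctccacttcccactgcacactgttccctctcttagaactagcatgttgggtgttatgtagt
Nlrp3: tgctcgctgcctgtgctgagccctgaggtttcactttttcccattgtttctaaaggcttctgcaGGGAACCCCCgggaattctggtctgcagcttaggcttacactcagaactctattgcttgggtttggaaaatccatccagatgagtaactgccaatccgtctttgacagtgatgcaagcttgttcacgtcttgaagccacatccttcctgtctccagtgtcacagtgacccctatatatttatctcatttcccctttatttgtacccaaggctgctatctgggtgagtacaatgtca
Tnip3: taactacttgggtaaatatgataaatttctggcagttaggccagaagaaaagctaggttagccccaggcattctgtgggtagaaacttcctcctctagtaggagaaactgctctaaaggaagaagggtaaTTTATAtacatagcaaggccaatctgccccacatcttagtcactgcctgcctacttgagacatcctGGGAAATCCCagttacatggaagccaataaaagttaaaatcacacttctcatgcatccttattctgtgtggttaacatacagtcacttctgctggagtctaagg
The windows lie at chr17:35201958-35202257 on the minus strand for Tnf, chr5:90903649-90903948 on the plus strand for Cxcl2, chr11:83649329-83649628 on the minus strand for Ccl3 and chr2:129371090-129371389 on the minus strand for Il1b. Those of the other genes are chr11:83578587-83578886 on the minus strand for Ccl9, chr11:59541319-59541618 on the plus strand for Nlrp3 and chr6:65590148-65590447 on the plus strand for Tnip3. Of the 14 genes with an entry, 4 held the NF-kB consensus, Cxcl2, Ccl9, Nlrp3 and Tnip3, against 4.51% of all 32851 windows in the table. In Cxcl2 a pair of matches overlapped, and in Tnip3 the match began at base −54 from the start used. By GENCODE M21 Tnip3 spans 65525313 to 65634040 on the plus strand, so its window lies inside the gene, away from its annotated first base. TATAAA was found in 7 of the 14 genes, against 13.6% of all windows. In Tnf it began at base −29 and in Il1b at base −31. The 14 genes had 15 windows, so a share of genes stands beside a share of windows. They were called from lists that include NF-kB genes, so these shares are descriptions only. A match describes letters only, and a window without one says nothing about binding elsewhere.

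Depth was high and similar in the compared libraries, with 21790759 reads in the remote tumor and 20811605 in CTX. The virus-treated libraries used for reference had 12375526 reads in the MV left tumor, injected with MV in the same treatment group as the remote tumor, and 14802809 in TRP-1 T-MV, where the transferred TRP-1 T cells carried the virus. Genes with a mean of at least 10 raw reads in the remote tumor and CTX were compared, 12609 of 25239, and they held 99.9% of the reads of each library. Levels are CPM on a TMM scale over the 4 libraries, and log2 ratios are remote tumor over CTX with 95% exact binomial intervals in brackets. Intervals cover counting error only, not differences between mice or preparations. A gene was called when its ratio was at least 2-fold in either direction and its interval excluded equality. A count of 0 allowed up to 0.151 CPM in the remote tumor and 0.156 in CTX. The tumors matched their label in the pigment genes, with 190866 reads of Tyrp1, the melanocyte enzyme TRP-1, in the remote tumor and 179384 in CTX.

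The libraries were close to each other over nearly all genes. The median log2 ratio was −0.0014 and 96.1% of genes lay within 1.5-fold. Among the 9365 genes with a mean of at least 200 reads, none was called and 3 passed 1.5-fold. In all, 52 genes were called higher in the remote tumor, 0.412% of those compared, and 28 lower, 0.222%. The calls sat among genes with few reads. A mean under 50 reads was found for 42 of 52 genes called higher and 27 of 28 called lower, and the highest count of any called gene was 222, for Ccl3. Of the higher genes, 21 had fewer than 10 reads in CTX and so passed the minimum only through the remote tumor, and 12 lower genes passed only through CTX.

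**Figure D1:**
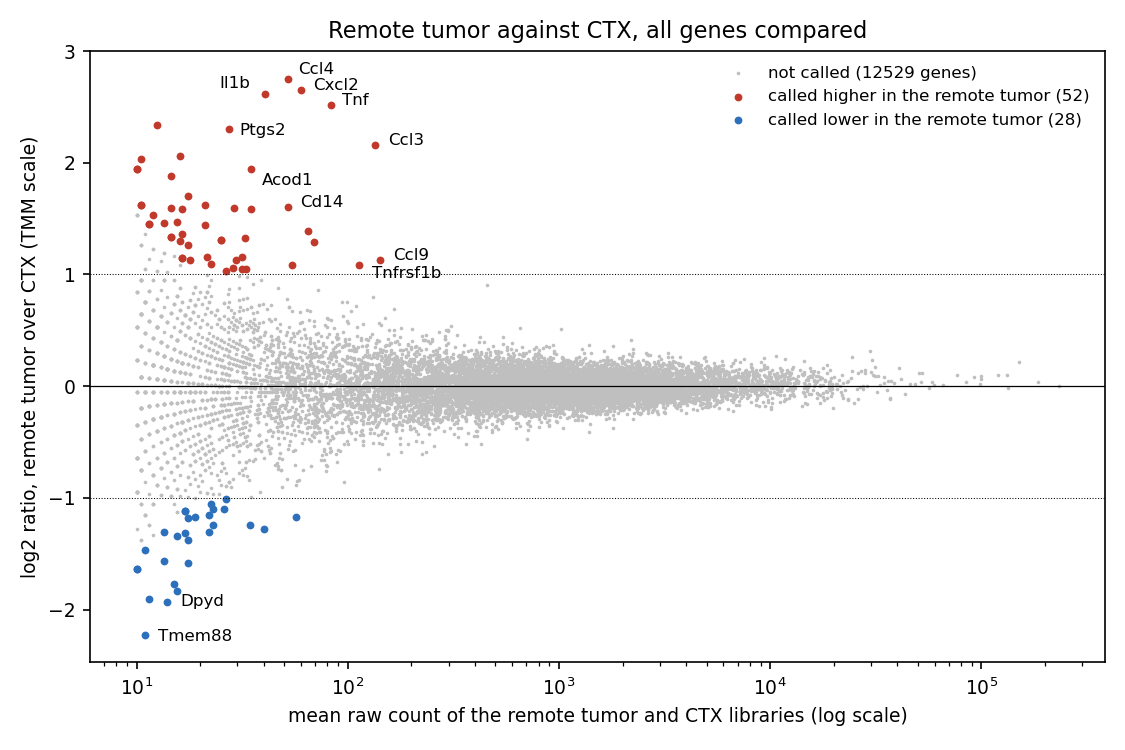
Log2 ratio of remote tumor over CTX (vertical axis) against the mean raw count of both libraries (horizontal, log scale) for 12609 genes, with 52 called higher in red, 28 called lower in blue and dotted lines at 2-fold. The cloud narrows around 0 with rising count, and the named inflammatory genes stand above it at counts between about 10 and 200.

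Small shifts also followed transcript length and base composition. By GENCODE M21 transcripts, which covered 98.6% of the genes compared, the median log2 ratio was 0.06 in the bin of shortest transcripts and −0.08 in the longest, with genes ordered into 10 equal bins. It went from −0.11 in the bin with the lowest GC content to 0.09 in the highest. In the lowest GC bin 431 of 1243 intervals lay below equality and 19 above, and in the highest 375 lay above and 11 below. Over all genes 25.4% of intervals excluded equality, and these shifts were part of the differences counted there. Their source was not tested. List medians below of around 0.1 are no larger than these shifts. The 17 inflammatory genes described below passed the rule after ratios were centred on either property, while 8 of them did at a mean of at least 50 reads and 11 after thinning.

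**Figure D2:**
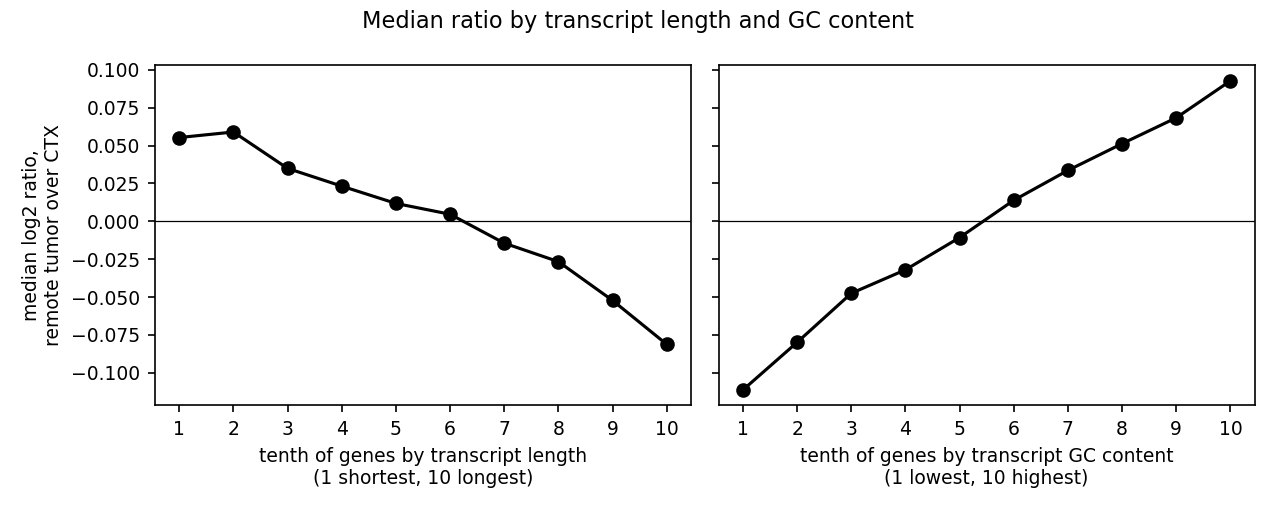
Median log2 ratio of remote tumor over CTX (vertical axis) in 10 equal bins of genes ordered by transcript length (left panel) or transcript GC content (right panel). The median falls from 0.06 to −0.08 with length and climbs from −0.11 to 0.09 with GC content.

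Cytokines and chemokines held the largest ratios. Of 33 members of the inflammatory cytokine and chemokine list, 21 passed the minimum, 7 of these were called higher and none lower, beside 0.412% of all genes called higher. Their median log2 ratio was 0.57, against −0.0014 over all genes. Of the 21, only Ptgs2 had fewer than 10 reads in CTX. All lists were chosen with earlier results of these data known, so the shares called are descriptions only. The share over all genes includes the 9365 with a mean of at least 200 reads, where none was called. Genes with fewer reads were called higher more often, 24 of 804 at 10 to 20 reads and 18 of 890 at 20 to 50. At 50 to 100 reads it was 7 of 669, and at 100 to 200 it was 3 of 881. Summed over all 33 members there were 3425 reads against 2620, a log2 ratio of 0.33 [0.26, 0.41]. Without the 7 called members the sum was 2551 against 2412 reads, at 0.03 [−0.05, 0.11]. The members left out were picked by their ratios, so the second sum is lower by construction. It also rests largely on abundant members, Csf1 with 797 reads against 793, Cxcl10 with 687 against 701 and Tnfsf9 with 450 against 365. The second sum therefore says little about the members with few reads.

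Tnf encodes the cytokine tumor necrosis factor. It had 143 reads in the remote tumor, 24 in CTX, 265 in the MV left tumor and 268 in TRP-1 T-MV, or 7.18, 1.25, 19.6 and 16.6 CPM. The log2 ratio to CTX was 2.52 [1.89, 3.21], a 5.74-fold difference. On the TMM scale the remote tumor stood between CTX and the virus-treated tumors, at 36.6% of the MV left level with an interval of 29.7% to 45.1%. Such intervals cover counting error only, and percentages of the MV left level change with the scaling. Of the TNF receptors, Tnfrsf1a, expressed by most cells, had 2566 reads against 2343 and was not called. Tnfrsf1b, the receptor of leukocytes and endothelium, had 156 against 71 and was called higher at 1.08 [0.67, 1.51].

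The chemokine genes Ccl3 and Ccl4 lie next to each other on mm10 chromosome 11, at 83647844 to 83649355 on the minus strand and 83662584 to 83664683 on the plus strand. Ccl4 had 91 reads in the remote tumor, 13 in CTX, 182 in the MV left tumor and 264 in TRP-1 T-MV. Its log2 ratio to CTX was 2.75 [1.91, 3.72], the highest of all genes compared, and its level was 33.9% of that in the MV left tumor. Ccl3 had 222, 48, 718 and 1068 reads in the same order of libraries, with a log2 ratio of 2.16 [1.70, 2.64], and its level was 11.2 CPM in the remote tumor against 53.1 in the MV left tumor. The other chemokine genes of this stretch of 138906 bases did not follow as one. Ccl9, a CCR1 ligand at 83572919 to 83578636, was called higher with 198 reads against 87, at 1.13 [0.76, 1.51]. Ccl6, at 83587882 to 83593087 between Ccl9 and Ccl3, had 153 against 177, and Ccl5, at 83525778 to 83530518, had 108 against 81, and neither was called. The receptor gene Ccr1, with 21 reads against 30, was not called. The monocyte attractants Ccl2 and Ccl7, in another cluster of that chromosome, had 34 reads against 41 and 37 against 43, at −0.32 [−1.02, 0.37] and −0.27 [−0.94, 0.40].

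Cxcl2, a CXCR2 ligand, had 104 reads in the remote tumor, 16 in CTX, 923 in the MV left tumor and 1683 in TRP-1 T-MV. Its log2 ratio was 2.65 [1.88, 3.51], and its level was 7.65% of that in the MV left tumor. It lies at chromosome 5, 90903871 to 90905938, beside other CXCR2 ligand genes. Cxcl1, at 90891241 to 90893115, had 36 reads against 19, at 0.87 [0.03, 1.75], with an interval above equality and a ratio under 2. Cxcl3 had 17 against 11, at 0.57 [−0.60, 1.81], and Cxcl5 had 0 in both, while in the MV left tumor they had 2550 and 109 reads. Cxcr2, the receptor on neutrophils, had 1 read in the remote tumor and 0 in CTX.

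Il1b, encoding interleukin-1 beta, had 70 reads in the remote tumor, 11 in CTX, 1159 in the MV left tumor and 2038 in TRP-1 T-MV. The log2 ratio to CTX was 2.62 [1.69, 3.68], and the level was 4.10% of that in the MV left tumor. Its exons overlap those of the antisense gene Il1bos, which had 0 reads in both compared libraries. The neighbouring Il1a, below the minimum, had 6 reads against 1, and the receptor antagonist gene Il1rn had 40 against 26, at 0.57 [−0.18, 1.34]. Ptgs2, encoding cyclooxygenase 2, had 46 reads against 9, at 2.30 [1.25, 3.52], with 330 in the MV left tumor. Ptges, which converts its product to prostaglandin E, had 0 and 2 reads. Among cytokines below the minimum, Il12b had 14 reads against 3, Il6 had 1 against 2, Il10 had 1 in each and Il12a had none. The interferon-induced chemokine Cxcl10, with 687 reads against 701, was not called.

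**Figure D3:**
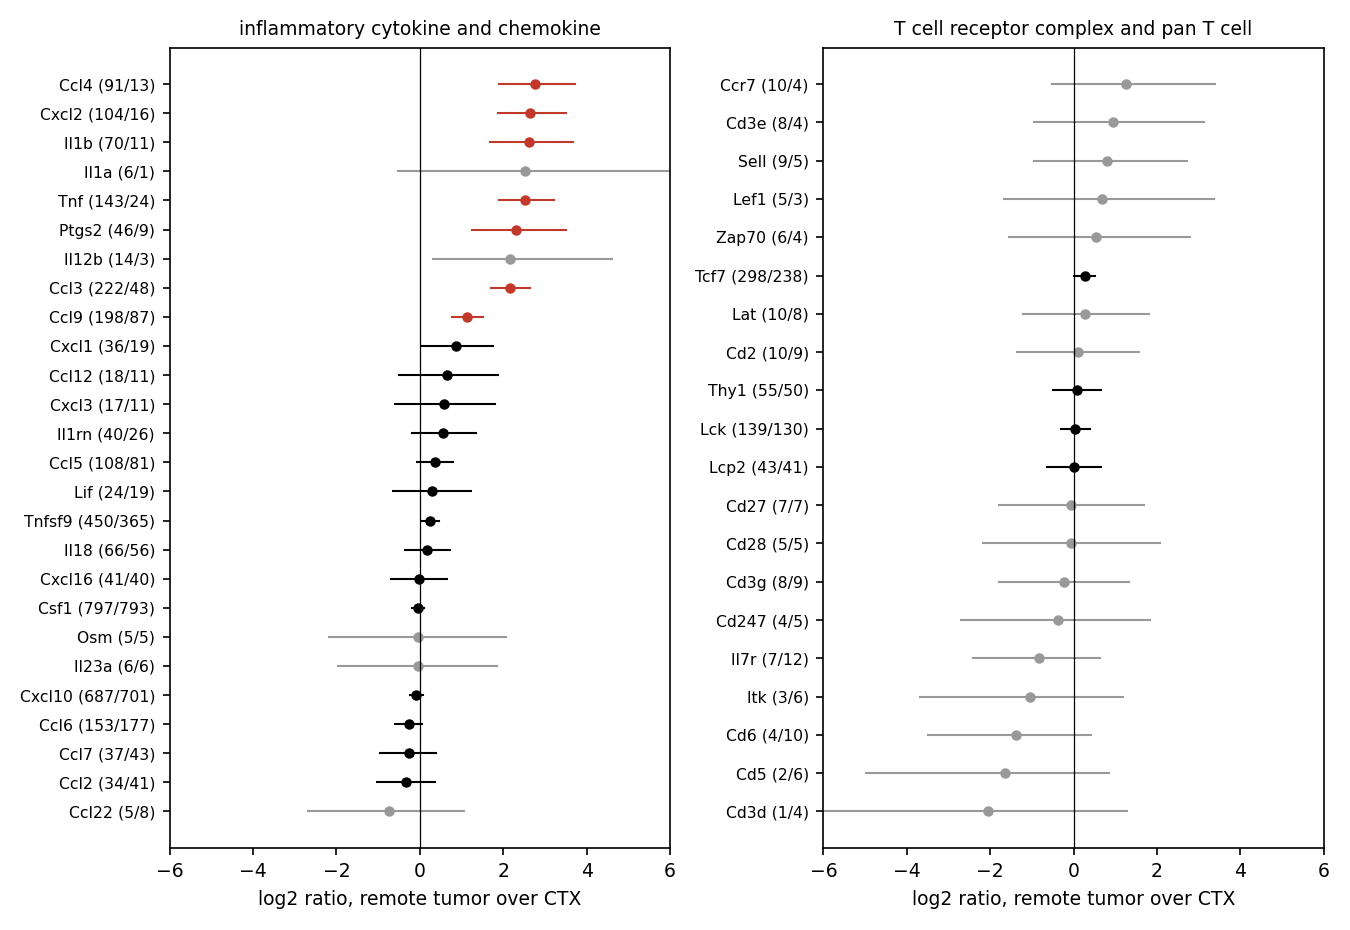
Log2 ratios of remote tumor over CTX (horizontal axis, cut at 6 in either direction) with 95% exact intervals for the inflammatory list (left) and the T cell receptor and pan T cell list (right), reads in the remote tumor and CTX after each name, red for called higher, black for other genes past the minimum and grey for genes below it. Genes with 3 reads or fewer in both libraries have no ratio and are not drawn. The 7 red genes, 6 for chemokines or cytokines and Ptgs2, lie right of 1, and all T cell genes but Tcf7 have intervals across 0.

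The NF-kB subunit and feedback list had 23 of 24 members past the minimum, with 3 higher, none lower and a median of 0.16, beside 0.412% higher and 0.222% lower over all genes. All 24 summed to 18431 reads against 16209, at 0.13 [0.10, 0.16]. The called members were Tnip3, an inhibitor of NF-kB signalling, with 17 reads against 4 at 2.03 [0.42, 4.06], the adaptor gene Traf1 with 31 against 11 at 1.44 [0.41, 2.58], and the adhesion molecule gene Icam1 with 99 against 39 at 1.29 [0.74, 1.86]. Icam1 has exons that overlap the gene model Gm47079. Abundant members lay near equality. The inhibitor gene Nfkbia had 652 reads against 528, at 0.25 [0.08, 0.42], and the subunit gene Nfkb1 had 2192 against 2003, at 0.08 [−0.01, 0.16]. Intervals of 11 members lay above equality and of none below, with ratios under 2 in 8 of the 11. These genes are also expressed by tumor cells, and in bulk tissue fewer cells of a type and less RNA per cell cannot be told apart.

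Among pattern recognition genes, 20 of 33 passed the minimum, with 4 higher, 1 lower and a median of 0.06, beside 0.412% and 0.222% of all genes. All 33 summed to 3934 reads against 3820, at −0.01 [−0.08, 0.05], so the list as a whole was not higher. Cd14, the lipopolysaccharide co-receptor, had 79 reads in the remote tumor, 25 in CTX and 1085 in the MV left tumor, at 1.61 [0.94, 2.32]. Nlrp3, the inflammasome sensor, had 26 against 6, at 2.06 [0.75, 3.63], and Pik3ap1, a signalling adaptor of Toll-like receptors, 95 against 35, at 1.39 [0.81, 1.99]. Clec4e, encoding the lectin receptor Mincle, had 44 against 14, at 1.60 [0.70, 2.58]. Clec4a1, in the same lectin cluster of chromosome 6 and outside the lists, had 53 against 17, at 1.59 [0.78, 2.47], whereas its neighbour Clec4n had 19 against 16 and was not called. Tlr2 had 41 reads against 20, at 0.98 [0.18, 1.83], short of the 2-fold limit. The lower member was Tlr12, with 9 reads against 26 at −1.58 [−2.86, −0.45]. Tlr4, the lipopolysaccharide receptor itself, had 1081 against 1190, at −0.19 [−0.31, −0.07].

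Activated macrophage enzymes and receptors had 20 of 27 members past the minimum, with 3 higher, none lower and a median of 0.45, beside 0.412% of all genes called higher. Of the 20, 3 had fewer than 10 reads in CTX, Nos2, Gpr84 and Lcn2, and the first of these are 2 of the 3 called. All 27 summed to 3430 reads against 3194, at 0.05 [−0.02, 0.12]. Acod1 had 56 reads in the remote tumor, 14 in CTX, 1225 in the MV left tumor and 2213 in TRP-1 T-MV, at 1.95 [1.08, 2.91]. Its level was 3.10% of that in the MV left tumor. Nos2, the inducible nitric oxide synthase gene, had 22 against 7, at 1.60 [0.32, 3.07], and Gpr84, a receptor for medium-chain fatty acids, 21 against 4, at 2.34 [0.77, 4.34]. The last has exons that overlap another gene model. Arg1, encoding arginase, had 40 reads against 27 and Mmp12, a macrophage elastase, 85 against 74, and neither was called. The oxidase subunit gene Cybb had 119 against 68, at 0.75 [0.31, 1.21].

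Taking these 4 lists as 1 set of 117 genes, 84 passed the minimum and 17 were called higher, beside 0.412% of all genes. As the lists were chosen with earlier results of these data known, this share is a description only. Of the 17, 5 passed the minimum only through the remote tumor, with fewer than 10 reads in CTX, namely Ptgs2, Nlrp3, Tnip3, Nos2 and Gpr84. All 17 had lower levels in the remote tumor than in the MV left tumor, with intervals wholly below equality. The remote level was a median of 8.43% of the MV left level over the 17, from 2.37% for Nos2 to 36.6% for Tnf. The called genes differed in this respect. The intervals for Tnf, 29.7% to 45.1%, and Ccl4, 26.1% to 43.9%, overlapped each other and lay above that for Il1b, 3.17% to 5.22%.

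**Figure D4:**
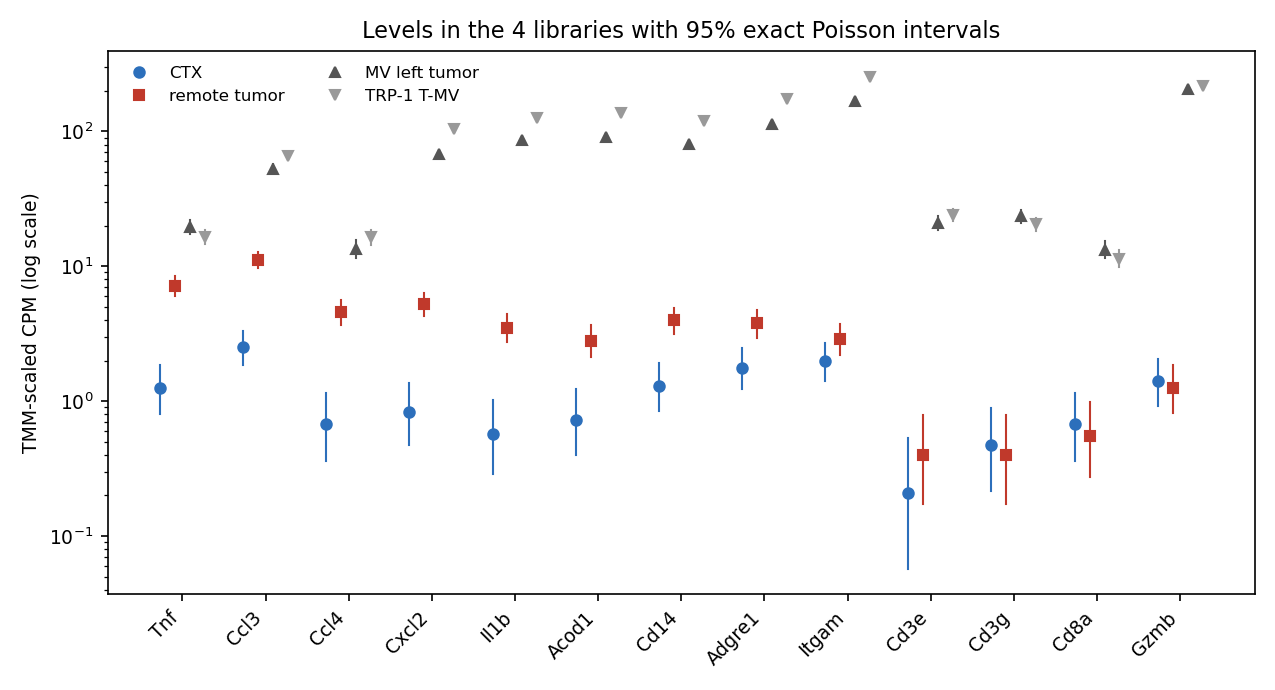
TMM-scaled CPM (log axis) of 13 genes in the CTX, remote tumor, MV left tumor and TRP-1 T-MV libraries, 1 point per library with a 95% exact Poisson interval for counting error. For Tnf, Ccl3, Ccl4, Cxcl2, Il1b, Acod1 and Cd14 the remote tumor lies above CTX and below both virus-treated tumors, while for Cd3e, Cd3g, Cd8a and Gzmb it overlaps CTX.

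Myeloid cell markers had few called members. Of 24 macrophage and monocyte genes, 22 passed the minimum and 1 was called higher, beside 0.412% of all genes, with a median of 0.09. The called gene was Adgre1, encoding F4/80, with 75 reads in the remote tumor, 34 in CTX, 1544 in the MV left tumor and 2797 in TRP-1 T-MV, at 1.09 [0.48, 1.72]. The receptor gene Csf1r had 121 reads against 79, at 0.56 [0.14, 0.99], Lyz2, the macrophage lysozyme, 674 against 516, at 0.33 [0.16, 0.50], and the integrin gene Itgam 58 against 38, at 0.56 [−0.06, 1.19]. The monocyte genes Ccr2, with 25 against 36, and Ly6c2, with 15 in each, were not called. All 24 genes summed to 12116 reads against 11162, at 0.06 [0.03, 0.10]. Sirpa, an abundant member also expressed outside myeloid cells, had 6780 against 6574. Without Sirpa the list summed to 5336 reads against 4588, at 0.16 [0.11, 0.22]. The abundant member Lgals3, with 2181 against 2008, was kept in both sums. The part of this difference in the inflammatory genes was not tested. The pan myeloid signalling list had 1 of 21 members past the minimum called higher, beside 0.412% of all genes, and a median of 0.20. The called member was the granulocyte receptor gene Csf3r with 25 reads against 11. All 22 members of that list summed to 3424 reads against 2830, at 0.22 [0.15, 0.29]. The common leukocyte antigen gene Ptprc had 52 reads against 64, at −0.35 [−0.91, 0.20]. Csf2rb2, a cytokine receptor gene outside the lists, was called with 36 reads against 14, a value made uncertain by its near-identical neighbour Csf2rb, which had 56 against 47.

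Neutrophil genes were almost without reads. Of 16 members, only Csf3r passed the minimum. S100a8, Ly6g, Retnlg, Ngp and Ltf had 0 reads in the remote tumor and S100a9 had 1, while the MV left tumor had 48 reads of S100a8 and 51 of S100a9. A set of 10 granule and defining genes summed to 3 reads in the remote tumor and 6 in CTX. Dendritic cell genes past the minimum numbered 8 of 16, and 1 was called higher, beside 0.412% of all genes. It was the integrin gene Itgax with 39 reads against 18, at 1.06 [0.22, 1.95]. At a mean of 20 to 50 reads, 18 of 890 genes were called higher. Xcr1 and Clec9a, markers of cross-presenting dendritic cells, had 2 reads in each library and 1 against 5. None of the 13 mast cell, basophil and eosinophil genes passed the minimum, with 5 reads against 3 in all.

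No member of the T cell lists was called in either direction. Of 23 pan T cell genes 4 passed the minimum, Lck, Tcf7, Thy1 and Lcp2, and none was called. All 23 summed to 641 reads against 566, a log2 ratio of 0.13 [−0.04, 0.29]. With both libraries thinned to the smallest total of the 4, in 1 draw, this sum came to 0.27 [0.06, 0.49], an interval above equality. That draw holds only part of the same reads. No call was defined for summed lists. Those 4 genes held most of the reads, and the other 19 summed to 106 against 107, at −0.07 [−0.47, 0.33]. For these 19 genes the interval leaves room for ratios from 0.723 to 1.26. Cd3e had 8 reads in the remote tumor, 4 in CTX, 284 in the MV left tumor and 389 in TRP-1 T-MV. Cd3d had 1 read against 4 and Cd3g 8 against 9, with 176 and 317 in the MV left tumor. The 3 genes together stood at 1.49% of the MV left level, with an interval of 0.861% to 2.39%, in a tumor of the same treatment group. Only Tcf7, a transcription factor gene with 298 reads against 238, had an interval above equality, at 0.27 [0.02, 0.52].

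Markers of T cell subsets and of killing had no called member. Of 15 CD4 helper and regulatory genes 6 passed the minimum and none was called, with a median of −0.01. Cd4 had 10 reads against 9 and Foxp3, the regulatory T cell factor, 9 in each. Il2ra, the interleukin-2 receptor chain of activated T cells, had 7 against 14 where the MV left tumor had 5611. Of 19 cytotoxic lymphocyte and NK cell genes 6 passed and none was called. Gzmb, encoding granzyme B, had 25 reads against 27, at −0.16 [−1.01, 0.68], with 2771 in the MV left tumor. Cd8a had 11 against 13, Ifng 3 against 2 and Prf1, encoding perforin, 12 against 5. The NK cell receptor gene Ncr1 had 3 in each. Xcl1, a lymphocyte chemokine gene, had 0 reads against 10, with a log2 interval wholly below −1.22, and was left uncalled only because its mean was under the minimum. Of 14 checkpoint genes 6 passed and none was called, with 4 reads against 2 for Pdcd1, encoding PD-1, and 237 against 205 for Cd274, encoding its ligand. Of 15 B cell and plasma cell genes 1 passed, Blnk, and Ms4a1, encoding CD20, had 1 read in the remote tumor and 0 in CTX.

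Genes that interferons induce were not higher. All 27 type I interferon stimulated genes passed the minimum and none was called, with a median of −0.11, and 5 intervals lay below equality and none above. Isg15, a ubiquitin-like protein gene, had 276 reads against 308, at −0.21 [−0.45, 0.03]. Of 22 interferon gamma response genes 20 passed, with a median of −0.09. Nos2 was the member called higher, beside 0.412% of all genes, and 6 intervals lay below equality. These medians became −0.07 and −0.05 after centring on GC content. The antigen presentation lists had no called member, with medians of 0.01 over 17 MHC class I genes and 0.02 over 9 MHC class II genes. H2-K1 had 1922 reads against 1710 and Cd74, the invariant chain gene, 1574 against 1419. Means over the members were below 0 in both, at −0.08 and −0.05.

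Tumor and stromal lists had few calls. All 19 pigment genes passed the minimum, with a median of 0.05 and 1 called lower, beside 0.222% of all genes. The called gene was the endothelin receptor gene Ednrb with 11 reads against 24, at −1.18 [−2.36, −0.09]. Genes with few reads were called lower more often, 18 of 804 at a mean of 10 to 20 and 9 of 890 at 20 to 50. Tyrp1 stood at 0.04 [0.03, 0.05], a direction that turned to −0.01 when scaled on the housekeeping list, and the mean over the pigment list was −0.04. Within it the lineage factor gene Sox10 was the highest of the list at 0.14. None of 24 proliferation, 19 hypoxia and glycolysis, 17 p53 target, 21 immediate early, 15 fibroblast and matrix, or 14 endothelial and platelet genes past the minimum was called, and their medians lay between −0.06 and 0.06. The immediate early genes, which respond within minutes to handling or growth factors, had a median of 0.06. Of 11 skeletal muscle genes past the minimum 1 was called lower, beside 0.222% of all genes. It was the myosin gene Myh1 with 17 reads against 35, which shares exonic sequence with the antisense gene Myhas. Keratinocyte, adipocyte, erythroid and sex-linked lists had 2, 1, 1 and 1 members past the minimum and none called. The 15 housekeeping genes had a median of 0.02.

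**Figure D5:**
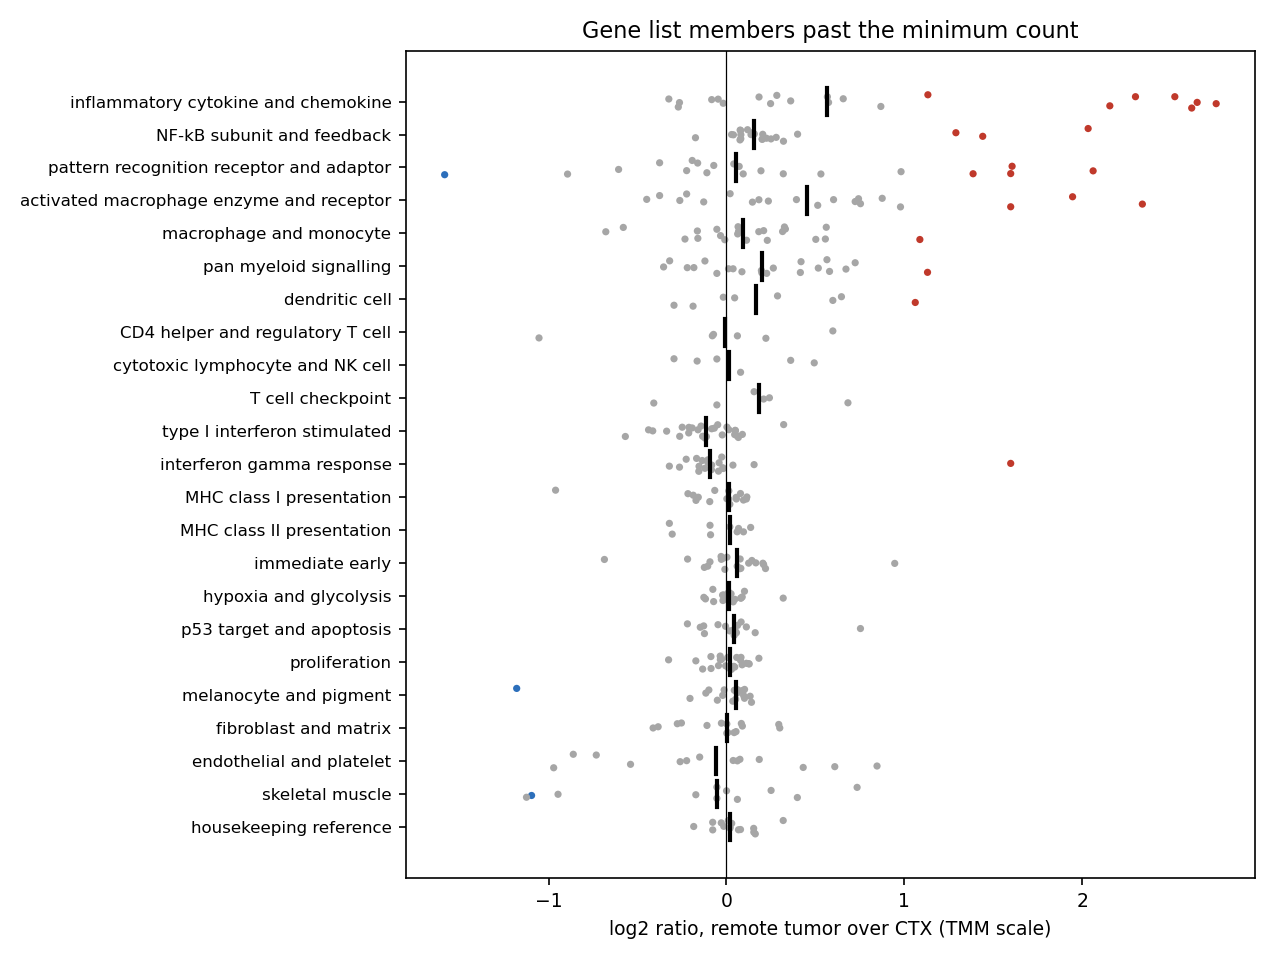
Log2 ratios of remote tumor over CTX (horizontal axis) for members past the minimum count in the 23 lists with at least 5 such members, 1 point per gene, red for called higher and blue for called lower, with a black bar at the list median. The inflammatory and activated macrophage lists have medians of 0.57 and 0.45 and hold 7 and 3 red points, and the other medians lie between −0.11 and 0.20.

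Other called genes had few reads. Among the 15 highest by interval, all were members of the lists named above or Clec4a1. Further down came the osteoclast and macrophage proton pump gene Atp6v0d2, with 27 reads against 8, at 1.70 [0.52, 3.05], and St8sia5, a sialyltransferase gene, with 32 against 10, at 1.62 [0.56, 2.81]. St8sia5 had 4 reads in the MV left tumor, so that its level there was below both compared libraries. Exons overlap another gene in 15 of 52 genes called higher and 7 of 28 called lower, and without a known strand setting those reads cannot be assigned with certainty. The share over all genes compared is not given here, so these counts are descriptions only.

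No list held more than 1 of the lower genes. The lowest by interval were Tmem88, a Wnt signalling regulator, with 4 reads against 18 at −2.22 [−4.25, −0.62], Dpyd, the pyrimidine-degrading dehydrogenase gene, with 6 against 22 at −1.93 [−3.52, −0.58], and the nucleoporin gene Nup210l with 7 against 24 at −1.83 [−3.29, −0.57]. Tmem88 overlaps exons of Naa38. C1ql1 followed with 24 against 56, at −1.28 [−2.03, −0.56], Cnksr2 with 7 against 23, Zfp456 with 21 against 48 and Gdf9 with 13 against 31. Ccdc96, Tent5c, Car5b and Lrrn3 were also among the 15 lowest. Cytip, a regulator of leukocyte adhesion, had 15 reads against 31, at −1.10 [−2.10, −0.17], and Acap1 had 10 against 24, at −1.32 [−2.55, −0.20]. Tagap, a GTPase-activating protein gene of activated T cells, had 8 against 19, at −1.30 [−2.70, −0.04], and was singled out after its value was seen. In the MV left tumor these last 3 had 1715, 256 and 180 reads.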

How the data were processed

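RNA-seq gene expression was analysed in 2 B16 tumor libraries, remote tumor and CTX, with the other 2 libraries of the series for scaling and reference. The deposited values are raw counts per gene, whole numbers for 25239 gene symbols, with no normalization. Per the submitters' processing notes, HISAT2, featureCounts and the build mm10 were used. Versions, annotation, strand setting and multimapping: not given in the sources used here.

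Counts were scaled with TMM over the 4 libraries (edgeR 4.0.16, R 4.3.3). Ratios, with 95% exact conditional binomial (Clopper-Pearson) intervals, and levels, with exact Poisson intervals, came from scipy 1.17.1 (Python 3.11.15). The calling code was run on simulated counts that held counting error only. That run checks the code and says nothing about differences between mice or preparations. A library without reads of a gene took 3 counts as its floor in the ratio, and none was given with 3 reads or fewer in both. List medians needed at least 5 members past the minimum. With 1 library per group there is no p-value.

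The 31 lists, members and rules were chosen with earlier results of these data known. Named genes were the 15 highest and 15 lowest called by the interval bound nearest to equality, unnamed gene models aside, called list members, list extremes, defining markers and family neighbours. Receptor genes of the leading ligands were chosen after values were seen. Flg was not among the symbols. Positions and transcripts came from GENCODE M21 (mm10), which held 12427 of the 12609 genes compared. Some genes are not discussed here.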

Additional observations from a re-analysis of the deposited data

How the results depend on the processing

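No paired analysis was possible because there was only 1 library in a group, and leaving out a replicate was not possible for the same reason. The other scalings were total counts, upper-quartile factors, DESeq2 1.42.0 size factors, TMM over the compared libraries only and the housekeeping list. They moved every log2 ratio of remote tumor over CTX by −0.042 to 0.017. They gave 47 to 57 higher and 27 to 35 lower genes, and kept all 17 inflammatory genes. Percentages of the MV left level were given on the TMM scale only. Effective library sizes there were 19903585 for the remote tumor and 13513797 for the MV left tumor. On the housekeeping list they were 24528398 and 11044264, which makes those percentages lower. With no minimum count 84 genes were higher and 60 lower, and with a mean of at least 50 reads 10 and 1, with 8 of the 17 kept. A ratio of at least 1.5 gave 89 and 77, a 99% interval 30 and 11, and an interval excluding a ratio of 2 gave 7 and 0. At the stricter 99% interval 16 of the 17 inflammatory genes remained. After thinning both libraries to the smallest total of the 4 (1 draw) 42 genes were higher and 28 lower, but only 20 and 8 were called before as well, 11 of the 17 inflammatory genes among them. The summed inflammatory log2 ratio was then 0.24, and the summed T cell ratio 0.27 [0.06, 0.49]. The latter interval no longer included equality, unlike under all scalings run. Thinning took 1 draw of the same reads and is not a scaling. The cause of the shift in the T cell sum was not tested. Centring on transcript length or GC content, added after the data were seen, gave 50 higher genes each, and 30 and 27 lower. No called gene changed direction under the alternatives run, while Tyrp1, Pecam1 and Col1a1, not called and near equality, did under at least 1. For genes with few reads, depth limits which are called, and differences between mice are not covered.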
